A study of Mus musculus with 27 samples.

Results

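The 30 genes described here code for the SREBP regulators and for the enzymes of cholesterol and fatty acid synthesis. They were taken by symbol from the 35275 genes of the expression tables, and all 30 were found. The list was drawn up with earlier results of these data known. RNA-seq was performed on P14 CD8 T cells, which carry a transgenic T cell receptor for an LCMV peptide, from WT P14+, Lin28bTg P14+ (lin28Tg) and Let-7Tg P14+ (let-7Tg) mice, all on a Rag2-/- background. Lin28 blocks the maturation of let-7 microRNAs, and the let-7 transgene is a let-7g inserted in the Col1a1 locus and induced by doxycycline. The promoter that drives the Lin28b transgene is not given in the sources used here. Naive cells were not stimulated. Activated cells were stimulated for 12 h with anti-CD3 (2 μg/mL) and anti-CD28 (5 μg/mL), and day 5 CTLs grew with irradiated splenocytes and anti-CD3 (2 μg/mL) and received IL-2 (100 U/mL) from 48 h on. Cultures of all 3 genotypes held doxycycline (2 μg/mL), so that WT cells received it too, and the mice, controls included, had drunk it before. Mice of both sexes were used at 6 to 10 weeks of age. Each genotype and stage had 3 libraries from separate biological replicates, 27 libraries in 9 groups. The stimulus differs between the 12 h and day 5 cultures, so that time and stimulus cannot be told apart between these stages. In bulk RNA a lower level can come from fewer cells of a type or from less RNA per cell, and these cannot be told apart.

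Cholesterol is made from acetyl-CoA through mevalonate and squalene, and fatty acids from acetyl-CoA through malonyl-CoA. The transcription factors SREBP1 and SREBP2 drive both pathways: SCAP carries them from the endoplasmic reticulum to the Golgi when sterols are low, INSIG1 holds them back when sterols are high, and the released factors act on sterol regulatory elements in the promoters of the synthesis genes. T cells that leave the resting state and divide need sterols and fatty acids for new membrane, and SREBP activity is known to be needed for CD8 T cells to grow after activation.

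Levels are given as FPKM, the reads of a gene scaled by its length and by the counted reads of its library, and the libraries held 13862706 to 23591069 counted reads. At that depth 10 reads on a gene of 2 kb amount to 0.212 to 0.361 FPKM. Of the 30 genes, 29 lay above this in every group, and Scd1 rested on few reads in naive and 12 h activated cells. Lin28b was at 9.94 to 67.9 FPKM in the lin28Tg libraries and at most 0.059 in all others, and Col1a1, whose locus holds the let-7 transgene, was at 9.06 to 62.8 FPKM in let-7Tg libraries and at most 4.93 in the others. All 9 CD8 T cell markers were above 0 in every group, with summed levels of 5131 to 7239 FPKM in naive, 2102 to 2923 in 12 h activated and 3070 to 4048 in day 5 libraries. Some but not all lists of other cell type markers were higher in the naive lin28Tg libraries. The summed level of 7 myeloid markers was 139, 702 and 382 FPKM in them, 32.5 to 53 in naive WT and 23.1 to 53.9 in naive let-7Tg libraries, and that of 6 erythroid markers was 494 to 1994 FPKM against 153 to 292 and 1.92 to 38.7. The hepatocyte gene Alb and 3 other hepatocyte and adipocyte markers summed to 56.5 and 10.8 FPKM in lin28Tg replicates 1 and 2 and to 0.0681 in replicate 3. Stromal markers summed to less in naive lin28Tg libraries, 40.9 to 48 FPKM, than in WT (63.6 to 64.8) and let-7Tg (69.6 to 76). B cell markers overlapped, at 362 to 444 FPKM in lin28Tg, 416 to 448 in WT and 381 to 431 in let-7Tg.

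The let-7 family acts through its seed, bases 2 to 8 of the mature microRNA, which pairs with the sequence CTACCTC in messenger RNAs. The mature let-7g, the member that the transgene carries, is shown with its seed in capitals (RefSeq, GRCm38.p6, chr9:106178846-106178867, plus strand).
mmu-let-7g-5p: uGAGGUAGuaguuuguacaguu
The match lies in the annotated 3′ UTR of 3 of the 30 genes (10%), Scd1, Scd2 and Srebf2, and in 1319 of 12684 tested genes with such a UTR (10.4%), so that the share was that of all genes. The sites are shown because Scd2 differed between lin28Tg and let-7Tg cells at all 3 stages and Scd1 showed the largest difference in day 5 CTLs. They are from GENCODE M21 on GRCm38, with the letters that pair with the seed in capitals. The Scd1 site is at chr19:44396349-44396376 on the minus strand, the Scd2 site at chr19:44306474-44306501 on the plus strand and the Srebf2 site at chr15:82204821-82204848 on the plus strand.
Scd1: cttccagatcctccCTACCTCcaactca
Scd2: ataatattcctgacCTACCTCcacgggt
Srebf2: ccccaccctcactcCTACCTCccataga
A match of these letters is a description, and let-7 binding to these sites was not measured here.

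RefSeq promoter windows, from 250 bases before to 50 after a start, were at hand for 24 of the 30 genes. Searched on both strands, the strict sterol regulatory element TCACNCCAC was found in 1 of them (4.17%), Hmgcs1, and in 1.24% of 32851 windows of all genes. The NF-Y box CCAAT, which often lies beside sterol regulatory elements, was found in 20 of 24 genes (83.3%), in 21 of their 31 windows, and in 37.4% of all windows, and the Sp1 box GGGCGG in 20 of 24 genes (83.3%), in 24 of 31 windows, and in 35.7%. The 200 bases before the start are printed for Hmgcs1 and Mvd, mevalonate pathway genes that were higher in lin28Tg than in let-7Tg day 5 CTLs, for Mvk, which has 5 CCAAT boxes in the stretch, and for Fasn, which peaked at 12 h. Capitals mark the sterol regulatory element and the CCAAT boxes of either strand (ATTGG on the strand shown). They are from RefSeq on GRCm38.p6, at chr13:119690151-119690350 (plus strand), chr8:122443423-122443622 (minus), chr5:114444069-114444268 (plus) and chr11:120824548-120824747 (minus).
Hmgcs1: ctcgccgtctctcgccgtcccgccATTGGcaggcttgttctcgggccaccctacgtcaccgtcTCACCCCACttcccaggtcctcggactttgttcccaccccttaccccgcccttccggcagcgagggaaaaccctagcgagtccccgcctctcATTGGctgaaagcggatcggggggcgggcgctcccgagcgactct
Mvd: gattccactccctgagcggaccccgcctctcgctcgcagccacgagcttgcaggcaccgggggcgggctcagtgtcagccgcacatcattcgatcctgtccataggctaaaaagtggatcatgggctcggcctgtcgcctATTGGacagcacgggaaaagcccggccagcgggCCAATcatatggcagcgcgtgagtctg
Mvk: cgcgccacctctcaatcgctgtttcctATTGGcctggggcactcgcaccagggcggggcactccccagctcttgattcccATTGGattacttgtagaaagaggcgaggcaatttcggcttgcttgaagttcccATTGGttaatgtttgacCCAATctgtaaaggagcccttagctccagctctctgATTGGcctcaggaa
Fasn: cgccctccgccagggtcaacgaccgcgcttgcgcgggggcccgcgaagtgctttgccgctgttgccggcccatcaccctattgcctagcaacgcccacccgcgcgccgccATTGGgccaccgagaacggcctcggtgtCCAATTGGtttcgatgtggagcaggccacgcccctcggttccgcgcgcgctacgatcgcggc

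Through activation and differentiation of WT cells, most of these genes rose. From naive to 12 h, 20 of 30 rose and 6 fell, beside 35.7% and 35.3% of 14453 tested genes, and from 12 h to day 5, 23 rose and 4 fell, beside 33.1% and 34.4% (limma on all 27 libraries, Benjamini-Hochberg adjusted p under 0.05). Log2 fold changes here and throughout are of FPKM plus 0.5 after scaling between libraries by the trimmed mean of M values (TMM), so that they can differ from ratios of the FPKM given. The median log2 fold change of the 30 genes was 1.25 and then 1.15, while that of all genes was -0.03 and -0.01. Without scaling, the median of all genes from naive to 12 h shifted by -0.16 in WT, -0.18 in lin28Tg and -0.15 in let-7Tg cells, and that of the 30 genes in WT was 1.00. The summed FPKM of the 30 genes was 1033 to 1113 in naive, 1841 to 2320 in 12 h activated and 3097 to 3645 in day 5 WT libraries, with no overlap between stages. At the level of single genes, 13 rose at both steps, 6 fell at 12 h and rose afterwards, 4 did not pass the test at 12 h and rose afterwards, 4 rose at 12 h and fell afterwards, and 3 rose at 12 h with no further change past the threshold. The WT mean was highest at day 5 for 25 genes, at 12 h for Scap, Fasn, Acaca and Elovl1, and in naive cells for Srebf1. Naive and 12 h activated cells belong to a single RNA-seq experiment, and whether the day 5 CTLs were prepared with them is not given in the sources used here, so that for day 5 stage and preparation cannot be told apart.

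**Figure D1:**
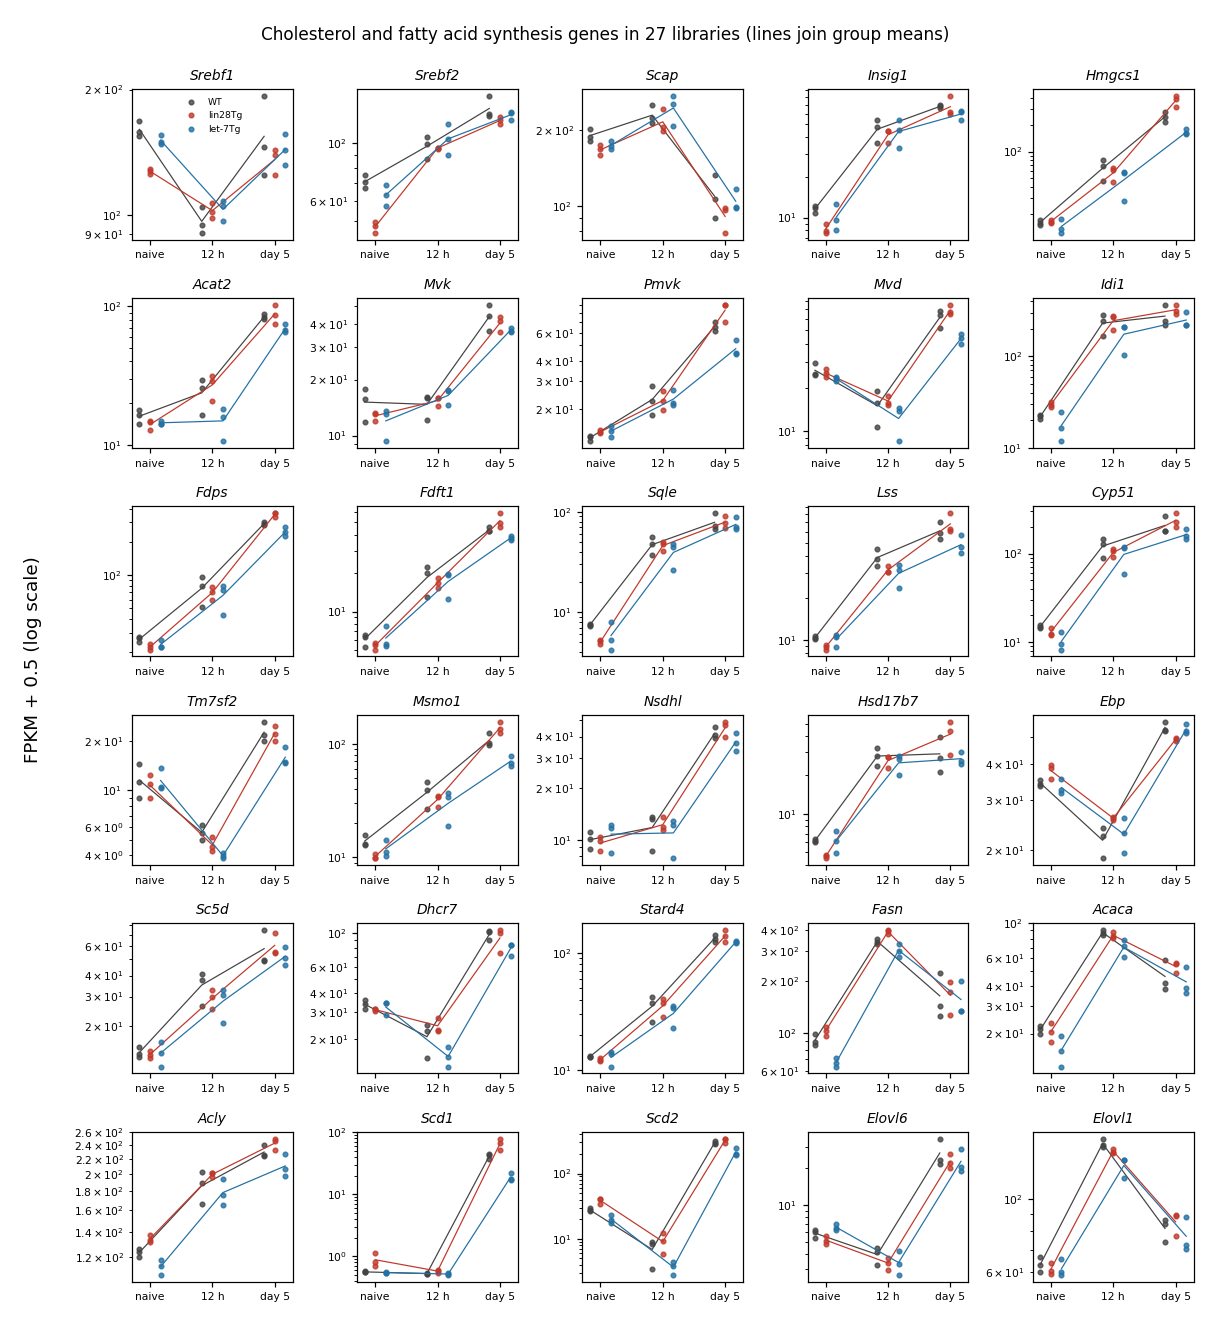
FPKM plus 0.5 on a log axis for each of the 30 genes in naive cells, 12 h activated cells and day 5 CTLs. Points are the 27 libraries, 3 per genotype and stage, and lines join group means. Most panels rise from left to right in all 3 genotypes. Fasn, Acaca, Scap and Elovl1 peak at 12 h, and Scd1 and Scd2 are lowest at 12 h and rise to day 5.

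In the sentences that follow, each gene's mean in naive, 12 h activated and day 5 cells is given in this order, with the SD over 3 libraries for WT. The SD was 0.471% to 46.7% of the mean over the groups of all 3 genotypes, with medians of 11.6% in WT, 9.33% in lin28Tg and 13.5% in let-7Tg groups, leaving out Scd1. Changes are log2 fold changes of WT cells with their SE, the change to 12 h before that from 12 h to day 5.

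The 4 regulators did not move together. Srebf1, which codes for SREBP1, averaged 160.1 ± 6.91, 96.1 ± 7.14 and 154 ± 34.6 FPKM in WT, 127, 102 and 135 in lin28Tg and 151, 103 and 143 in let-7Tg cells. It fell and then rose again, with changes of -0.48 (SE 0.10) and 0.50 (SE 0.10). Srebf2, which codes for SREBP2, the main driver of cholesterol synthesis, averaged 70.4 ± 3.99, 96.7 ± 9.87 and 135 ± 13.4 FPKM in WT, 47.1, 95.1 and 122 in lin28Tg and 62.6, 103 and 128 in let-7Tg cells. It rose at both steps, by 0.70 (SE 0.11) and 0.33 (SE 0.11). Scap, the escort of both factors, averaged 189.7 ± 11.5, 229 ± 19.8 and 109 ± 21.5 FPKM in WT, 167, 215 and 90.7 in lin28Tg and 174, 244 and 104 in let-7Tg cells. It had the highest WT mean of the 30 genes in naive cells, rose and then fell, with changes of 0.52 (SE 0.12) and -1.23 (SE 0.12). Insig1, the sterol-sensitive anchor and itself an SREBP target, averaged 11.1 ± 0.649, 45.5 ± 8.83 and 67.6 ± 2.03 FPKM in WT, 7.70, 41.3 and 67.4 in lin28Tg and 9.55, 43.7 and 59.3 in let-7Tg cells and rose by 2.21 (SE 0.19) and 0.43 (SE 0.19).

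Of the 7 mevalonate pathway genes, 5 rose to 12 h and 6 from 12 h to day 5. Acat2, which joins acetyl-CoA units at its entry, averaged 15.6 ± 1.80, 23.3 ± 6.65 and 83.7 ± 3.18 FPKM in WT, 13.5, 26.6 and 87.6 in lin28Tg and 13.96, 14.4 and 68.8 in let-7Tg cells, and changed by 0.77 (SE 0.21) and 1.71 (SE 0.21). Hmgcs1, the HMG-CoA synthase, averaged 15.5 ± 1.02, 64.3 ± 16.8 and 246 ± 31.8 FPKM in WT, 15.8, 57.0 and 374 in lin28Tg and 13.9, 47.5 and 165 in let-7Tg cells and rose by 2.23 (SE 0.24) and 1.80 (SE 0.24). Mevalonate kinase, Mvk, averaged 14.6 ± 3.06, 14.2 ± 2.27 and 43.2 ± 6.96 FPKM in WT, 12.3, 14.9 and 39.8 in lin28Tg and 11.5, 15.9 and 36.4 in let-7Tg cells. Its 12 h value did not differ from naive past the threshold (adjusted p = 0.257) and it rose afterwards, the changes being 0.21 (SE 0.16) and 1.42 (SE 0.16). The next kinase, Pmvk, averaged 12.7 ± 0.548, 22.4 ± 4.87 and 65.1 ± 4.20 FPKM in WT, 13.8, 22.04 and 82.7 in lin28Tg and 13.99, 22.5 and 47.1 in let-7Tg cells and rose by 1.02 (SE 0.14) and 1.39 (SE 0.14). Mvd, the decarboxylase that makes isopentenyl diphosphate, averaged 26.0 ± 3.02, 14.6 ± 4.14 and 61.0 ± 8.36 FPKM in WT, 24.8, 15.7 and 68.6 in lin28Tg and 22.7, 11.8 and 43.4 in let-7Tg cells and fell before it rose, with changes of -0.60 (SE 0.20) and 1.91 (SE 0.20). Idi1, the isomerase of that product, averaged 21.4 ± 1.27, 229.5 ± 56.5 and 274 ± 76.5 FPKM in WT, 29.2, 244 and 321 in lin28Tg and 17.1, 173 and 248 in let-7Tg cells. It showed the largest rise of the 30 genes in the first 12 h and none past the threshold afterwards, with changes of 3.61 (SE 0.29) and 0.10 (SE 0.29). Fdps, which makes farnesyl diphosphate, averaged 25.8 ± 1.37, 75.6 ± 22.9 and 292 ± 8.24 FPKM in WT, 21.8, 69.1 and 355 in lin28Tg and 23.04, 65.1 and 246 in let-7Tg cells and rose by 1.74 (SE 0.21) and 1.84 (SE 0.21).

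Of the 11 sterol branch genes, 7 rose and 3 fell to 12 h, and 10 rose from 12 h to day 5. Fdft1, the squalene synthase, averaged 5.57 ± 0.700, 17.99 ± 4.82 and 43.2 ± 1.66 FPKM in WT, 4.91, 16.3 and 51.1 in lin28Tg and 5.70, 16.7 and 37.2 in let-7Tg cells, with rises of 1.82 (SE 0.20) and 1.13 (SE 0.20). Sqle, which oxidises squalene, averaged 6.90 ± 0.249, 46.5 ± 9.38 and 78.1 ± 16.1 FPKM in WT, 4.54, 45.5 and 78.5 in lin28Tg and 5.32, 38.8 and 74.4 in let-7Tg cells and rose by 2.89 (SE 0.23) and 0.59 (SE 0.23). Lss, which closes the ring to lanosterol, averaged 9.86 ± 0.308, 38.6 ± 5.38 and 60.2 ± 8.89 FPKM in WT, 8.36, 31.3 and 67.7 in lin28Tg and 9.59, 29.6 and 47.9 in let-7Tg cells and rose by 2.15 (SE 0.16) and 0.48 (SE 0.16). Cyp51, the lanosterol demethylase, averaged 14.5 ± 0.693, 121 ± 29.9 and 207 ± 47.6 FPKM in WT, 12.5, 102 and 236 in lin28Tg and 9.74, 97.2 and 163 in let-7Tg cells and rose by 3.23 (SE 0.25) and 0.63 (SE 0.25). Tm7sf2, a sterol reductase, averaged 11.1 ± 2.78, 5.03 ± 0.593 and 22.3 ± 3.29 FPKM in WT, 10.3, 4.13 and 21.97 in lin28Tg and 11.02, 3.48 and 15.5 in let-7Tg cells. It fell at 12 h in all 3 genotypes and then rose, with WT changes of -0.81 (SE 0.16) and 1.90 (SE 0.16). Msmo1, which removes methyl groups at C4, averaged 13.4 ± 1.58, 36.9 ± 10.1 and 107 ± 13.8 FPKM in WT, 9.70, 31.8 and 138 in lin28Tg and 11.4, 29.4 and 69.5 in let-7Tg cells and rose by 1.64 (SE 0.23) and 1.40 (SE 0.23). Nsdhl, its partner in that step, averaged 9.49 ± 1.11, 11.3 ± 2.80 and 41.2 ± 3.18 FPKM in WT, 9.05, 11.7 and 44.6 in lin28Tg and 10.3, 10.5 and 36.7 in let-7Tg cells. Its first change did not pass the test (adjusted p = 0.0527) and its second did, at 0.45 (SE 0.20) and 1.70 (SE 0.20). Hsd17b7, the ketoreductase of the same complex, averaged 5.67 ± 0.188, 27.7 ± 4.39 and 28.8 ± 9.64 FPKM in WT, 4.15, 25.5 and 41.2 in lin28Tg and 5.64, 24.4 and 26.4 in let-7Tg cells. It rose at 12 h and did not change past the threshold afterwards, with 2.42 (SE 0.23) and -0.14 (SE 0.23). Ebp, the sterol isomerase, averaged 33.9 ± 0.812, 21.1 ± 2.61 and 53.4 ± 2.27 FPKM in WT, 37.5, 25.3 and 48.4 in lin28Tg and 32.6, 22.2 and 52.6 in let-7Tg cells and fell before it rose, with changes of -0.43 (SE 0.11) and 1.17 (SE 0.11). Sc5d, a desaturase, averaged 13.5 ± 0.969, 34.6 ± 7.61 and 57.3 ± 14.5 FPKM in WT, 13.1, 28.8 and 59.9 in lin28Tg and 13.3, 27.6 and 51.5 in let-7Tg cells and rose by 1.55 (SE 0.21) and 0.56 (SE 0.21). Dhcr7, which makes cholesterol from 7-dehydrocholesterol, averaged 33.5 ± 2.38, 20.2 ± 4.99 and 97.9 ± 7.57 FPKM in WT, 30.8, 23.9 and 92.6 in lin28Tg and 32.0, 14.8 and 78.8 in let-7Tg cells. Like Mvd, Tm7sf2 and Ebp it fell and then rose, with changes of -0.50 (SE 0.17) and 2.13 (SE 0.17). Stard4, a carrier of cholesterol between membranes, averaged 12.6 ± 0.107, 34.7 ± 8.45 and 133 ± 8.65 FPKM in WT, 11.9, 35.0 and 139 in lin28Tg and 12.4, 30.1 and 124 in let-7Tg cells and rose at both steps, by 1.64 (SE 0.18) and 1.80 (SE 0.18).

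Of the 7 fatty acid genes, 4 rose and 1 fell to 12 h, and 3 rose and 3 fell afterwards. Acly, which cleaves citrate to acetyl-CoA, averaged 123 ± 3.15, 186 ± 18.6 and 229 ± 9.27 FPKM in WT, 134, 199.5 and 242 in lin28Tg and 113, 178 and 210.1 in let-7Tg cells, with changes of 0.84 (SE 0.09) and 0.15 (SE 0.09), of which the first passed the test. Acaca, the acetyl-CoA carboxylase, averaged 20.7 ± 1.11, 86.9 ± 2.95 and 45.5 ± 10.7 FPKM in WT, 20.0, 83.4 and 52.7 in lin28Tg and 15.2, 70.0 and 42.0 in let-7Tg cells. Fasn, the fatty acid synthase, averaged 90.3 ± 7.32, 342 ± 10.2 and 164 ± 53.0 FPKM in WT, 102, 391 and 166 in lin28Tg and 66.8, 304 and 156 in let-7Tg cells. Both rose at 12 h and fell afterwards, with changes for Acaca of 2.30 (SE 0.17) and -1.10 (SE 0.17) and for Fasn of 2.17 (SE 0.19) and -1.26 (SE 0.19). Elovl1, which extends saturated chains to very long ones, averaged 62.7 ± 3.38, 147 ± 4.58 and 81.0 ± 6.68 FPKM in WT, 60.7, 139.5 and 84.8 in lin28Tg and 60.9, 126 and 76.7 in let-7Tg cells and followed the same course, with 1.48 (SE 0.10) and -1.02 (SE 0.10). Elovl6, Scd1 and Scd2 had their lowest WT means at 12 h. Elovl6, the elongase of palmitate, averaged 5.41 ± 0.464, 3.45 ± 0.631 and 26.1 ± 7.25 FPKM in WT, 4.69, 2.87 and 22.2 in lin28Tg and 6.10, 2.90 and 22.2 in let-7Tg cells, with -0.37 (SE 0.21) and 2.59 (SE 0.21), of which the second passed the test. Scd2, a stearoyl-CoA desaturase, averaged 27.3 ± 1.41, 6.37 ± 2.97 and 294 ± 15.5 FPKM in WT, 38.2, 8.57 and 325 in lin28Tg and 19.6, 3.19 and 213 in let-7Tg cells and fell before it rose, with changes of -1.90 (SE 0.28) and 5.40 (SE 0.28). Scd1, its close paralog, held 4, 5 and 4 reads in naive and 2, 2 and 2 reads in 12 h activated WT libraries, and 43.8, 43.2 and 36.3 FPKM in day 5 CTLs. Over the summed reads the day 5 level was 1543-fold that at 12 h (95% interval 709 to 4207, counting error only) in WT, 821-fold (525 to 1363) in lin28Tg and 1043-fold (407 to 3830) in let-7Tg cells. On the log2 scale with 0.5 FPKM added, which understates a change from so low a level, the rise in WT was 6.29 (SE 0.15, adjusted p = 4.11e-18).

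**Figure D2:**
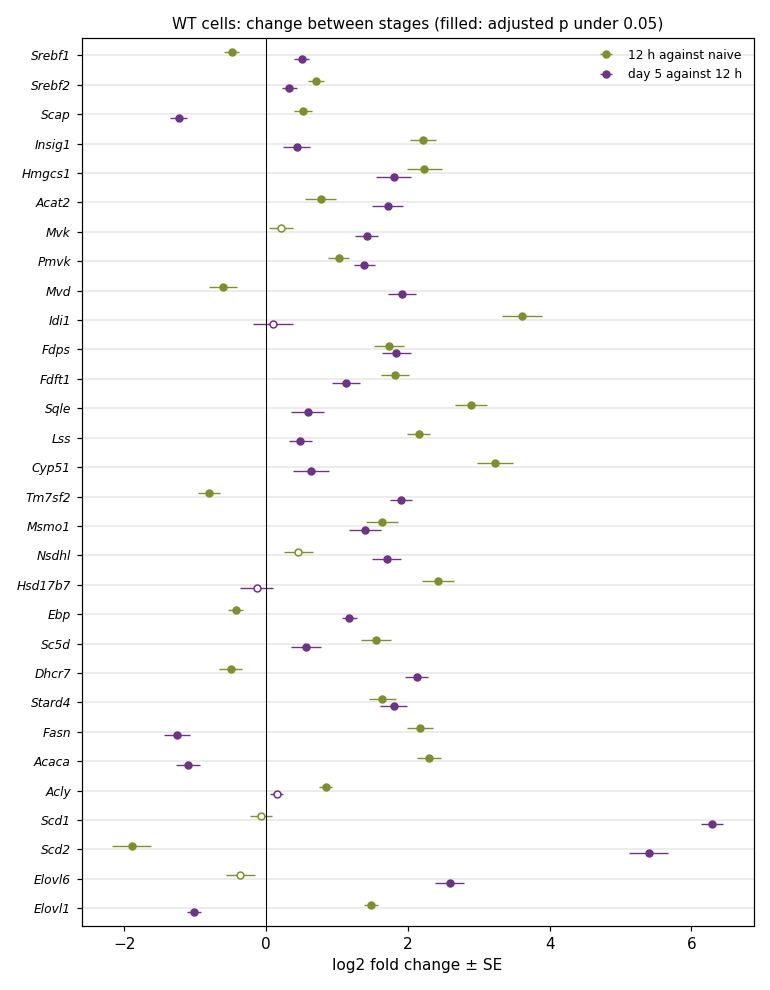
Log2 fold changes with SE of the 30 genes in WT cells, from naive to 12 h and from 12 h to day 5. Filled points have an adjusted p under 0.05. Idi1 and Cyp51 have the largest first change, at 3.61 and 3.23, and Scd1 and Scd2 the largest second change, at 6.29 and 5.40.

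Most of the genes also rose at each step in the transgenic cells. In lin28Tg cells 22 genes rose and 4 fell to 12 h, beside 73.5% of all tested genes called in either direction, and 25 rose and 4 fell from 12 h to day 5, beside 66.3%. In let-7Tg cells 20 rose and 7 fell to 12 h, beside 69.3%, and 21 rose and 4 fell from 12 h to day 5, beside 67.1%. The share of the 30 genes called in either direction, 83.3% to 96.7%, thus stands against a background in which most genes, 66.3% to 73.5%, were called. Some of these genes overlap a neighbour on the other strand, as Cyp51 does Akap9, Elovl1 Cdc20, Fdft1 Ctsb and Srebf1 Rai1, or on the same strand, as Tm7sf2 does Vps51. The strand setting of the counting is not given in the sources used here, so that reads of such neighbours may be among theirs, and reads of Scd1 and Scd2 may be split between these paralogs.

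In naive cells, all 4 regulators were lower in lin28Tg than in WT, and both desaturases were higher. Of the 30 genes 9 were lower and 2 higher in lin28Tg than in WT cells, beside 15.8% lower and 19% higher among 13277 tested genes (limma on the 9 naive libraries), and the median log2 fold change was -0.16, against -0.04 for all genes. The genes called lower were the regulators Srebf1, Srebf2, Scap and Insig1 and the enzymes Fdps, Sqle, Lss, Msmo1 and Hsd17b7. The genes called higher were Scd1 and Scd2. As many as 4629 of the 13277 genes differed between these groups, and markers of other cell types did as well, with 6 of 6 tested myeloid, 4 of 5 erythroid and 2 of 4 NK cell markers higher in lin28Tg cells and 4 of 9 CD8 T cell markers lower. Other lists were mixed, with 3 of 5 stromal markers higher and 1 lower, 2 of 4 B cell markers higher and 1 lower, and 2 of 4 CD4 T cell markers higher and 2 lower. Their part in the result was not tested.

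Srebf2 was at 66.6, 70.1 and 74.5 FPKM in the WT and 44.7, 47.6 and 49.1 FPKM in the lin28Tg libraries. All 3 lin28Tg values lay below all WT values (log2 fold change -0.63, SE 0.07, adjusted p = 0.000389). Srebf1 was at 155, 158 and 168 FPKM in WT and 127, 129 and 125 in lin28Tg cells, again without overlap (log2 fold change -0.39, SE 0.06, adjusted p = 0.0016). The calls of Srebf1 and Srebf2 held under all alternatives of processing and left-out libraries, and those of the other 9 genes did not. Scap was at 187, 180 and 202 FPKM in WT and 174, 168 and 159 in lin28Tg cells (log2 fold change -0.24, SE 0.07, adjusted p = 0.0281). Insig1 was at 11.6, 10.4 and 11.4 FPKM in WT and 7.19, 8.52 and 7.40 in lin28Tg cells (log2 fold change -0.56, SE 0.15, adjusted p = 0.0179). Among the enzymes, 2 of the demethylation complex were lower. Msmo1 was at 12.5, 15.2 and 12.4 FPKM in WT and 9.37, 10.3 and 9.48 in lin28Tg cells (log2 fold change -0.50, SE 0.13, adjusted p = 0.0149), and Hsd17b7 was at 5.89, 5.54 and 5.58 FPKM in WT and 4.26, 4.16 and 4.01 in lin28Tg cells (log2 fold change -0.46, SE 0.14, adjusted p = 0.0274). Fdps was at 24.2, 26.3 and 26.9 FPKM in WT and 21.7, 23.1 and 20.7 in lin28Tg cells (log2 fold change -0.29, SE 0.09, adjusted p = 0.0248). For Sqle the log2 fold change was -0.61 (SE 0.19, adjusted p = 0.0351) and for Lss -0.28 (SE 0.10, adjusted p = 0.0438). For all 9 lower genes the lin28Tg and WT values did not overlap. That was so for 16 of the 30 genes, called or not, and the share over all tested genes was not computed. The count of 11 genes called was 8 without WT replicate 1, 7 without lin28Tg replicate 1, 6 without lin28Tg replicate 2, 4 without either of WT replicates 2 and 3 and 3 without lin28Tg replicate 3.

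The desaturases went the other way. Scd2 was at 26.2, 26.8 and 28.9 FPKM in WT and 40.8, 34.1 and 39.8 in lin28Tg cells (log2 fold change 0.42, SE 0.11, adjusted p = 0.0164). Scd1 held 4, 5 and 4 reads in the WT and 18, 71 and 24 reads in the lin28Tg libraries, a ratio of 6.67 over the summed reads (95% interval 3.75 to 12.9, counting error only), and passed the test (log2 fold change 0.61, SE 0.18, adjusted p = 0.0254). The highest Scd1 value was that of lin28Tg replicate 2, the library with the highest summed level of myeloid markers. Scd2 had its lowest lin28Tg value in that library. The part of other cell types in either difference was not tested.

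Between naive let-7Tg and WT cells, Fasn was called. It was at 84.8, 87.6 and 98.6 FPKM in WT and 70.9, 63.2 and 66.3 in let-7Tg cells (log2 fold change -0.49, SE 0.08, adjusted p = 0.0323), so that 1 of 30 genes was called, beside 0.934% of all tested genes. It was called when WT replicate 1 was left out and in no other of the 6 cases, Cyp51 being called instead without let-7Tg replicate 1 and no gene without WT replicate 2 or 3 or let-7Tg replicate 2 or 3. Of the other 29 genes, 26 had a negative and 3 a positive log2 fold change, and the median over the 30 was -0.18 against -0.01 for all genes. Scd2 (log2 fold change -0.53, SE 0.11, adjusted p = 0.0606) and Cyp51 (log2 fold change -0.63, SE 0.15, adjusted p = 0.0906) came nearest to the threshold.

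Set directly against each other in naive cells, lin28Tg exceeded let-7Tg in 5 genes and was lower in 4, beside 23% and 21.2% of all tested genes. The higher genes were Idi1 and 4 of the 7 fatty acid genes, Fasn, Acly, Scd1 and Scd2. The lower genes were Srebf1, Srebf2, Hsd17b7 and Elovl6. Fasn was at 108, 96.0 and 103 FPKM in lin28Tg and 70.9, 63.2 and 66.3 in let-7Tg cells (log2 fold change 0.61, SE 0.08, adjusted p = 0.000401). Scd2 was at 40.8, 34.1 and 39.8 against 22.7, 18.8 and 17.2 FPKM (log2 fold change 0.95, SE 0.11, adjusted p = 0.000218). The 3 lin28Tg values lay above the 3 let-7Tg values for each of the 5 higher genes. Values of these genotypes did not overlap in 11 of the 30 genes, called or not, and the share over all tested genes was not computed. Idi1 was at 27.2, 31.4 and 28.9 FPKM in lin28Tg and 23.8, 11.3 and 16.1 in let-7Tg cells (log2 fold change 0.81, SE 0.20, adjusted p = 0.00957), and Acly at 131, 137 and 133 FPKM in lin28Tg and 117, 107 and 113 in let-7Tg cells (log2 fold change 0.24, SE 0.05, adjusted p = 0.00514). Scd1 held 18, 71 and 24 against 5, 2 and 3 reads, a ratio of 8.55 (95% interval 4.48 to 18.3, counting error only), and passed the test (log2 fold change 0.65, SE 0.18, adjusted p = 0.0144). Among the lower genes, Srebf2 was at 44.7, 47.6 and 49.1 FPKM in lin28Tg and 68.2, 56.8 and 62.8 in let-7Tg cells (log2 fold change -0.41, SE 0.07, adjusted p = 0.00196). Srebf1 was at 127, 129 and 125 FPKM in lin28Tg and 149.5, 155 and 148 in let-7Tg cells (log2 fold change -0.25, SE 0.06, adjusted p = 0.0078). No values of the genotypes overlapped for these or for Elovl6, which was at 4.61, 4.31 and 5.15 FPKM in lin28Tg and 6.03, 6.53 and 5.73 in let-7Tg cells (log2 fold change -0.35, SE 0.12, adjusted p = 0.0338). Hsd17b7 was at 4.15 ± 0.126 FPKM in lin28Tg and 5.64 ± 1.17 in let-7Tg cells (log2 fold change -0.39, SE 0.14, adjusted p = 0.0435). Acly lies 5.54 Mb, Acaca 10.8 Mb and Fasn 25.9 Mb from Col1a1 on chromosome 11, where the let-7 transgene sits, so that for these genes the transgene and the region around its insertion cannot be told apart. All 6 tested myeloid, 5 of 5 erythroid and 4 of 4 NK cell markers were also higher in lin28Tg than in let-7Tg naive cells, and 4 of 9 CD8 T cell markers were lower. Of the stromal markers 3 of 5 were higher and 2 lower, of the CD4 T cell markers 2 of 4 higher and 2 lower, and of the B cell markers 2 of 4 higher. Their part in the result was not tested.

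At 12 h, in the fit without a replicate block, few of the genes passed the test between genotypes. A block in the 6 WT and let-7Tg libraries alone was chosen after seeing the data. With it 12 of 29 tested genes were lower in let-7Tg than in WT cells, beside 12.4% of 11778 tested genes called in either direction. With the lin28Tg libraries included, the block gave 0 calls between let-7Tg and WT cells. Without the block, between lin28Tg and WT cells, 0 of 29 tested genes passed the limma test, beside 8.48% of 12239 tested genes (0 with voom on the recovered reads). An unadjusted p under 0.05 was found for 0 of the 29, beside 2970 of the 12239. Scd1, with 0 to 9 reads in a library, was not tested. Between let-7Tg and WT cells 0 of 29 passed as well, beside 3.24% (0 with voom). Here 5 of the 29 had an unadjusted p under 0.05, beside 2654 of the 12239. Tm7sf2 came nearest to the threshold (log2 fold change -0.50, SE 0.12, adjusted p = 0.0588), and without let-7Tg replicate 1 a single gene, Acaca, was called. Of the 29 genes 24 had a negative log2 fold change in let-7Tg, with a median of -0.25 against 0.0012 for all genes. Srebf2 was at 98.6, 86.0 and 105 FPKM in WT, 95.1, 94.6 and 95.5 in lin28Tg and 103, 89.0 and 118 in let-7Tg cells. Srebf1 was at 94.1, 90.3 and 104 FPKM in WT, 106, 102 and 98.2 in lin28Tg and 96.3, 105 and 108 in let-7Tg cells. Scap, high in all 3 genotypes at this stage, was at 213, 251 and 223 FPKM in WT, 242, 198 and 206 in lin28Tg and 208, 272 and 253 in let-7Tg cells. Insig1 was at 47.0, 36.0 and 53.5 FPKM in WT, 35.6, 44.3 and 43.8 in lin28Tg and 44.8, 32.9 and 53.4 in let-7Tg cells. The values of these 4 regulators overlapped between every pair of genotypes.

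Between lin28Tg and let-7Tg cells at 12 h, 4 genes were higher and 0 lower in lin28Tg, beside 16.3% and 14.5% of all tested genes. They were Acat2, Dhcr7, Fasn and Scd2. Fasn was at 394, 379 and 399 FPKM in lin28Tg, 342, 332 and 353 in WT and 301, 278 and 332 in let-7Tg cells, and no genotype overlapped another (log2 fold change 0.38, SE 0.09, adjusted p = 0.0132). Scd2 was at 5.46, 11.6 and 8.63 FPKM in lin28Tg and 3.93, 2.30 and 3.35 in let-7Tg cells (log2 fold change 1.27, SE 0.39, adjusted p = 0.0349). The values of Acat2 were 20.1, 31.2 and 28.6 FPKM in lin28Tg and 15.4, 10.2 and 17.7 in let-7Tg cells (log2 fold change 0.88, SE 0.28, adjusted p = 0.0398). Those of Dhcr7 were 22.4, 27.2 and 22.2 FPKM in lin28Tg and 14.7, 12.6 and 17.1 in let-7Tg cells (log2 fold change 0.69, SE 0.20, adjusted p = 0.0283). For all 4 genes the lin28Tg values lay above the let-7Tg values. Values of these genotypes did not overlap in 9 of the 29 tested genes, called or not, and the share over all tested genes was not computed. The 4 calls came to 1, that of Fasn, without lin28Tg replicate 2, without lin28Tg replicate 3 or without let-7Tg replicate 2. In lin28Tg cells 4 of 6 tested myeloid and 4 of 5 erythroid markers were higher than in let-7Tg cells, with summed levels of 7.34 to 13.6 against 5.64 to 8.85 FPKM and of 83.3 to 693 against 0.774 to 4.34 FPKM. Of the CD8 T cell markers 5 of 9 were lower and 1 higher in lin28Tg cells, and 2 of 3 tested B cell markers were higher. Their part in the result was not tested.

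Replicate 2 stood apart at 12 h in WT and let-7Tg cells. In WT it held the lowest of the 3 values for 27 of the 30 genes, while it was lowest for 34.4% of all tested genes, and in let-7Tg for 26 of 30, beside 27.5%. In lin28Tg cells replicate 1 was lowest for 22 of the 30, beside 4076 of 12239 tested genes. The median deviation from the group mean over 29 genes was 0.11, -0.31 and 0.25 on the log2 scale in WT replicates 1 to 3, 0.16, -0.32 and 0.20 in let-7Tg and -0.13, 0.11 and 0.03 in lin28Tg. The summed FPKM of the 30 genes was 2134, 1841 and 2320 in WT, 1947, 1590 and 2083 in let-7Tg and 2003, 2171 and 2152 in lin28Tg replicates 1 to 3. Whether WT and let-7Tg libraries of the same number were made side by side is not stated in the labels. Over all tested genes the deviations of same-numbered WT and let-7Tg libraries correlated at 0.24, 0.549 and 0.434. With the replicate number as a block in a fit of these 6 libraries, chosen after seeing the data, 12 of the 29 tested genes were lower in let-7Tg than in WT cells, beside 12.4% of 11778 tested genes called in either direction. They were Hmgcs1, Acat2, Idi1, Fdps, Lss, Cyp51, Tm7sf2, Msmo1, Sc5d, Dhcr7, Acaca and Scd2. The largest of these differences was that of Scd2, at -0.84 (SE 0.17, adjusted p = 0.0269), and that with the smallest adjusted p was Acat2, at -0.70 (SE 0.07, adjusted p = 0.00613). In the fit without the block 3 of 5 tested erythroid markers were also lower in let-7Tg than in WT cells at this stage, with summed levels of 0.774 to 4.34 against 26.1 to 103 FPKM, and their part in the result was not tested. With lin28Tg included, whose same-numbered libraries correlated with theirs at -0.257 to 0.0721, the block gave 0 calls.

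**Figure D3:**
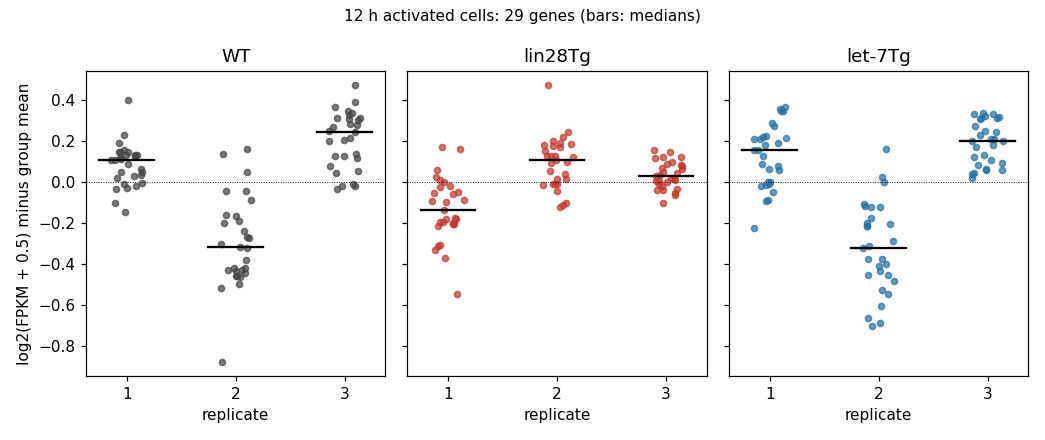
Deviation of each gene from its group mean, as log2 of FPKM plus 0.5, in the 3 replicates of each genotype at 12 h. Points are 29 genes, Scd1 left out, and bars are medians. The median of replicate 2 lies at -0.31 in WT and -0.32 in let-7Tg, below replicates 1 and 3, and at 0.11 in lin28Tg.

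In day 5 CTLs some genes of the cholesterol and fatty acid pathways passed the test as higher in lin28Tg than in let-7Tg. Of the 30 genes 12 were higher and 0 lower in lin28Tg than in let-7Tg CTLs, beside 10.8% higher and 10.7% lower among 13030 tested genes. As many as 28 had a positive log2 fold change, with a median of 0.42 against 0.0036 for all genes, and without scaling between libraries 26 had, with a median of 0.31 against -0.09. Called were 5 of the 7 mevalonate pathway genes (Hmgcs1, Acat2, Pmvk, Mvd and Fdps), 4 of the 11 sterol branch genes (Fdft1, Lss, Tm7sf2 and Msmo1) and 3 of the 7 fatty acid genes (Acly, Scd1 and Scd2), and 0 of the 4 regulators. In 21 of the 30 genes the means stood in the order let-7Tg, WT, lin28Tg, beside 23% of all tested genes. That order was seen in 7 of 30 genes in naive cells and 9 of 29 at 12 h, beside 23.7% and 25.8%.

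Scd1 showed the largest difference. It was at 78.8, 51.0 and 65.5 FPKM in the lin28Tg libraries, 43.8, 43.2 and 36.3 in WT and 21.9, 16.9 and 16.2 in let-7Tg, and the 3 genotypes did not overlap. The lin28Tg level was 3.72-fold that of let-7Tg (log2 fold change 1.90, SE 0.16, adjusted p = 0.000208). Scd2 was at 340.2, 292 and 343 FPKM in lin28Tg, 312, 283 and 288 in WT and 249, 193 and 197 in let-7Tg, and its lin28Tg and let-7Tg values did not overlap (log2 fold change 0.72, SE 0.11, adjusted p = 0.00189). These 2 desaturases, which make monounsaturated fatty acids, are also the enzyme genes of the list whose 3′ UTRs hold the let-7 seed match printed above. The other genes called in this comparison hold no match. The match lay in 10% of the 30 genes and 10.4% of tested genes, and its part in these differences was not tested. Srebf2, the third gene with a match, was at 117, 122 and 125 FPKM in lin28Tg, 151, 126 and 129 in WT and 129.6, 123 and 131 in let-7Tg, with overlapping lin28Tg and let-7Tg values (log2 fold change 0.04, SE 0.09, adjusted p = 0.795).

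Of the mevalonate pathway, Hmgcs1 was at 317, 387 and 418 FPKM in lin28Tg, 216, 243 and 279 in WT and 161, 157 and 177 in let-7Tg CTLs. Again no genotype overlapped another (log2 fold change 1.28, SE 0.14, adjusted p = 0.000618). Hmgcs1 is the gene whose printed promoter holds the strict sterol regulatory element. Pmvk was at 89.4, 69.9 and 88.9 FPKM in lin28Tg, 69.4, 64.7 and 61.1 in WT and 53.4, 43.8 and 44.3 in let-7Tg, without overlap (log2 fold change 0.91, SE 0.11, adjusted p = 0.000968). Mvd was at 66.3, 64.6 and 74.9 FPKM in lin28Tg, 68.2, 51.9 and 63.0 in WT and 43.5, 39.9 and 47.0 in let-7Tg (log2 fold change 0.76, SE 0.13, adjusted p = 0.00326). Here lin28Tg and WT values overlapped and both lay above let-7Tg. Fdps was at 363, 338 and 362 FPKM in lin28Tg, 301, 284 and 292 in WT and 243, 224 and 271 in let-7Tg, without overlap (log2 fold change 0.64, SE 0.09, adjusted p = 0.00138). Acat2 was at 87.6 ± 13.8 FPKM in lin28Tg and 68.8 ± 4.67 in let-7Tg (log2 fold change 0.45, SE 0.12, adjusted p = 0.0277).

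Of the sterol branch, Msmo1 was at 123, 134 and 156 FPKM in lin28Tg, 97.3, 100.1 and 123 in WT and 67.7, 63.0 and 78.0 in let-7Tg CTLs, with the largest difference of the branch and no overlap between genotypes (log2 fold change 1.09, SE 0.14, adjusted p = 0.00125). Fdft1 was at 49.0, 45.7 and 58.6 FPKM in lin28Tg, 42.3, 42.2 and 45.1 in WT and 38.5, 35.8 and 37.4 in let-7Tg, also without overlap (log2 fold change 0.55, SE 0.11, adjusted p = 0.00663). Lss (log2 fold change 0.60, SE 0.17, adjusted p = 0.0357) and Tm7sf2 (log2 fold change 0.60, SE 0.13, adjusted p = 0.0117) were called as well, and of the fatty acid genes Acly (log2 fold change 0.31, SE 0.08, adjusted p = 0.0256). Not called were Cyp51 (log2 fold change 0.64, SE 0.20, adjusted p = 0.0534), whose lin28Tg and let-7Tg values did not overlap, Hsd17b7 (log2 fold change 0.71, SE 0.28, adjusted p = 0.108), Idi1 (log2 fold change 0.49, SE 0.22, adjusted p = 0.145) and Sqle (log2 fold change 0.19, SE 0.19, adjusted p = 0.518). Fasn was at 127, 173 and 198 FPKM in lin28Tg and 135, 134 and 200.1 in let-7Tg CTLs and did not pass the test (log2 fold change 0.20, SE 0.27, adjusted p = 0.655). Ebp had the smallest difference, at 48.4 ± 0.515 FPKM in lin28Tg and 52.6 ± 2.16 in let-7Tg (TMM-scaled log2 fold change -0.01, adjusted p = 0.923). None of the other 3 regulators passed the test. Srebf1 was at 143, 139 and 125 FPKM in lin28Tg and 156, 143 and 131 in let-7Tg (adjusted p = 0.903) and Scap at 78.1, 97.8 and 96.2 FPKM in lin28Tg and 98.7, 97.8 and 116 in let-7Tg (adjusted p = 0.719). Insig1 was at 61.8, 59.6 and 80.7 FPKM in lin28Tg and 61.6, 62.6 and 53.7 in let-7Tg (adjusted p = 0.138). Without scaling between libraries, the log2 fold changes of Srebf1 and Srebf2 were negative. A p over the threshold does not show that they were equal.

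**Figure D4:**
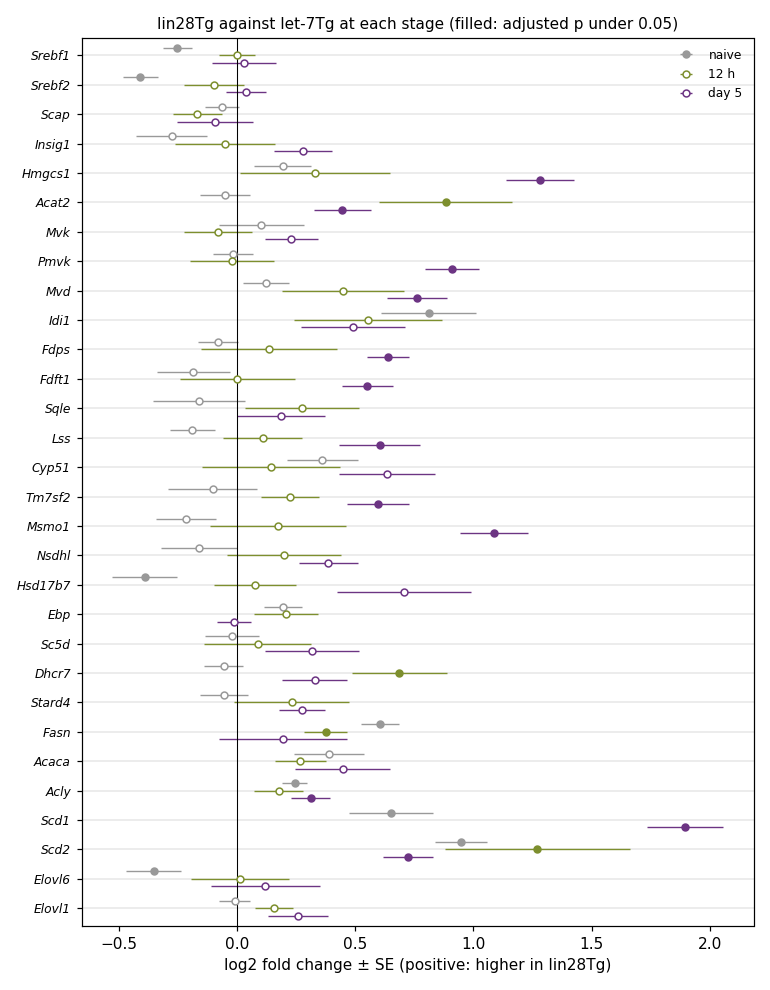
Log2 fold change of lin28Tg against let-7Tg with SE for the 30 genes in naive cells, 12 h activated cells and day 5 CTLs. Filled points have an adjusted p under 0.05, and Scd1 was not tested at 12 h. In day 5 CTLs 28 of 30 points lie to the right of 0, with Scd1 at 1.90 and Hmgcs1 at 1.28, while in naive cells 19 of 30 lie to the left.

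Same-numbered libraries of day 5 CTLs deviated together, with correlations of 0.245 to 0.715 over all 9 pairs, and the replicate number was therefore also used as a block. It raised the count of genes higher in lin28Tg than in let-7Tg from 12 to 20, beside 36.3% of all tested genes called in either direction. The 8 genes added were Idi1, Cyp51, Nsdhl, Hsd17b7, Sc5d, Dhcr7, Stard4 and Acaca, with log2 fold changes from 0.28 for Stard4 to 0.71 for Hsd17b7. Without a block the count was 8 to 14 when single libraries were left out. In lin28Tg CTLs, NK cell markers summed to 60.8 to 158 FPKM against 2.15 to 4.7 in let-7Tg, myeloid markers to 9.26 to 13.8 against 3.7 to 6.67, B cell markers to 31.9 to 142 against 178 to 248 and stromal markers to 3.13 to 7.54 against 20.1 to 34.8, and hepatocyte and adipocyte markers were at 0 in all lin28Tg libraries. Of the 4 NK cell markers, Klra8 and Klra4 had no reads in any lin28Tg library, and 1 of the 4 was tested and was higher. CD8 T cell markers summed to 3070 to 3436 FPKM in lin28Tg against 3826 to 4048 in let-7Tg CTLs, with 3 of 9 lower and 1 higher. The part of these markers in the result was not tested.

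Against WT, both transgenic lines differed less, and both comparisons share the 3 WT libraries. In lin28Tg CTLs 2 genes were higher and 0 lower than in WT, beside 4.34% of tested genes called in either direction. They were Hmgcs1 (log2 fold change 0.66, SE 0.14, adjusted p = 0.0374) and Scd1 (log2 fold change 0.69, SE 0.16, adjusted p = 0.046). In let-7Tg CTLs 1 gene was lower, Scd1 (log2 fold change -1.20, SE 0.16, adjusted p = 0.0262), beside 0.929%. All 30 genes had a negative log2 fold change in let-7Tg against WT CTLs, with a median of -0.26 against -0.01 for all genes. Of the 30, 12 had an unadjusted p under 0.05, beside 1639 of 13030 tested genes. In lin28Tg against WT 23 were positive, with a median of 0.13 against -0.0012. The lin28Tg count of 2 fell to 1 without WT replicate 3 or lin28Tg replicate 1 or 2 and to 0 without WT replicate 1 or 2 or lin28Tg replicate 3. The let-7Tg call of Scd1 was lost without WT replicate 1 or 2 or let-7Tg replicate 1 or 2.

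With the replicate number as a block, lin28Tg CTLs exceeded WT in 7 genes and let-7Tg CTLs fell short of WT in 11. Of all tested genes 13.5% and 4.07% were called in these comparisons, in either direction. In lin28Tg CTLs these were Hmgcs1, Scd1, Pmvk, Fdps, Fdft1, Msmo1 and Hsd17b7, for example Msmo1 at 0.42 (SE 0.07, adjusted p = 0.0102) and Fdps at 0.33 (SE 0.07, adjusted p = 0.0181). In let-7Tg CTLs they were Scd1, Hmgcs1, Acat2, Pmvk, Mvd, Fdps, Lss, Tm7sf2, Msmo1, Dhcr7 and Scd2. The largest were Scd1 at -1.20 (SE 0.11, adjusted p = 0.00739), Msmo1 at -0.67 (SE 0.07, adjusted p = 0.00866) and Hmgcs1 at -0.63 (SE 0.08, adjusted p = 0.015). Each gene called without the block was also called with it. Hmgcs1, Scd1, Pmvk, Fdps and Msmo1 are in both lists, in opposite directions, and both lists rest on the same WT libraries.

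**Figure D5:**
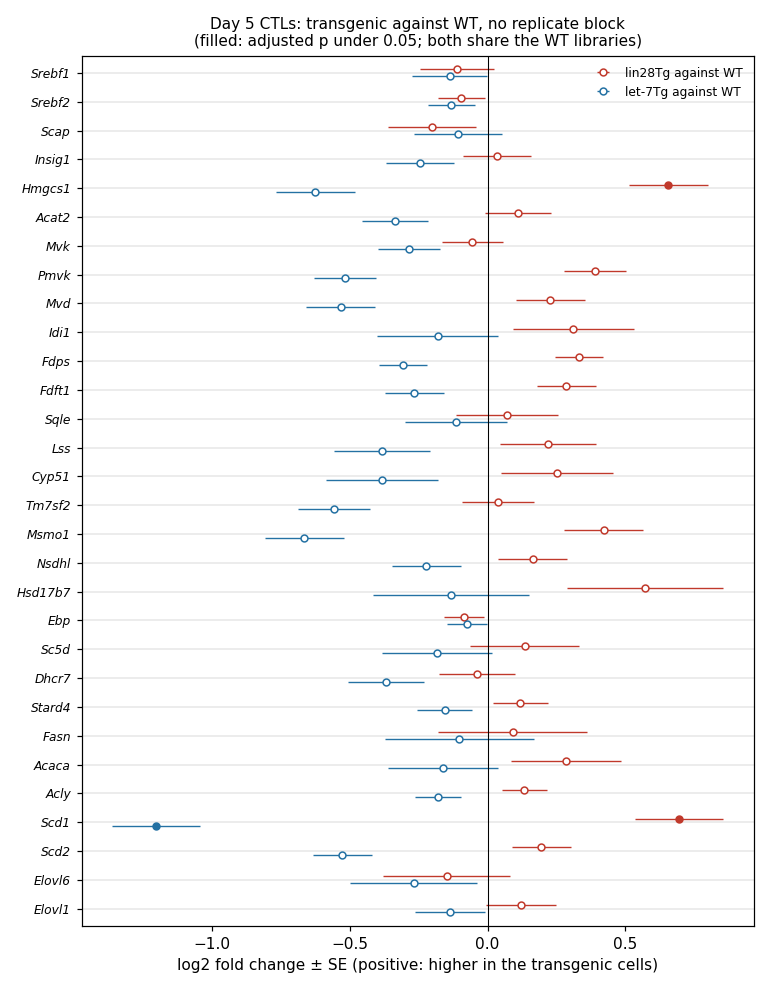
Log2 fold change with SE of the 30 genes in day 5 CTLs of lin28Tg and let-7Tg mice against the same 3 WT libraries, without a replicate block. Filled points, Hmgcs1 and Scd1 in lin28Tg and Scd1 in let-7Tg, have an adjusted p under 0.05. All 30 let-7Tg points lie to the left of 0, down to -1.20 for Scd1, and 23 of the lin28Tg points to the right.

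The difference between lin28Tg and let-7Tg cells was then compared between stages, as an interaction in the fit of all 27 libraries. From naive cells to day 5 CTLs, a comparison added after seeing the data, it moved toward lin28Tg in 7 genes and toward let-7Tg in 0, beside 9.16% and 16.2% of all tested genes. These were Pmvk (log2 fold change 0.90, SE 0.20, adjusted p = 0.00214), Msmo1 (log2 fold change 1.27, SE 0.32, adjusted p = 0.00502), Hsd17b7 (log2 fold change 1.06, SE 0.32, adjusted p = 0.0163), Lss (log2 fold change 0.76, SE 0.23, adjusted p = 0.0167), Hmgcs1 (log2 fold change 1.06, SE 0.34, adjusted p = 0.0262), Tm7sf2 (log2 fold change 0.67, SE 0.22, adjusted p = 0.0286) and Scd1 (log2 fold change 1.27, SE 0.22, adjusted p = 0.000154). Hsd17b7 was lower in lin28Tg in naive cells, at 4.15 ± 0.126 against 5.64 ± 1.17 FPKM, and in day 5 CTLs was at 41.2 ± 11.9 against 26.4 ± 3.14. From 12 h to day 5, 2 genes were called, Pmvk (log2 fold change 0.91, SE 0.20, adjusted p = 0.00244) and Scd1 (log2 fold change 1.71, SE 0.22, adjusted p = 5.08e-06), beside 8.16% of all tested genes toward lin28Tg and 12% toward let-7Tg. From naive to 12 h, 2 were called, Acat2 (log2 fold change 0.93, SE 0.30, adjusted p = 0.0424) and Dhcr7 (log2 fold change 0.74, SE 0.23, adjusted p = 0.0391), beside 5.06% and 8.24%. The Scd1 interactions depend on how its few reads before day 5 enter. With voom on the recovered reads, which sets them as ratios, they had the opposite sign and were not called. The counts also moved with single libraries. The 7 calls from naive cells to day 5 fell to 4 without let-7Tg day 5 replicate 2. The 2 calls from 12 h to day 5 rose to 8 without let-7Tg 12 h replicate 2 and to 5 without lin28Tg day 5 replicate 1. The 2 calls from naive to 12 h fell to 1 without let-7Tg naive replicate 2 or let-7Tg 12 h replicate 1 and to 0 without any of lin28Tg naive replicates 2 and 3, let-7Tg naive replicates 1 and 3, lin28Tg 12 h replicates 2 and 3 and let-7Tg 12 h replicate 2.

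Other genes of sterol metabolism, a list of 22 of which 21 were found, moved in both directions. In WT cells 11 of 21 rose and 7 fell to 12 h (median log2 fold change 0.23), and 9 rose and 2 fell from 12 h to day 5 (median 0.30), beside 35.7% of all tested genes rising and 35.3% falling in the first step and 33.1% and 34.4% in the second. Tmem97, a sterol-responsive membrane protein, rose from 3.57 ± 0.509 FPKM in naive cells to 57.4 ± 6.01 at 12 h, by 4.07 (SE 0.19, adjusted p = 4.2e-14). From 12 h to day 5 Npc1, which exports cholesterol from lysosomes, rose by 1.36 (SE 0.15, adjusted p = 2.64e-08), and Soat1, which esterifies cholesterol, by 0.99 (SE 0.15, adjusted p = 6.18e-06). Idi2, another isopentenyl isomerase, fell from 0.488 ± 0.323 to 0.0157 ± 0.0272 FPKM (log2 fold change -0.96). In lin28Tg against let-7Tg cells, 3 of 20 tested genes were higher and 5 lower in naive cells, 2 of 21 higher and 5 lower at 12 h and 3 of 20 higher and 2 lower in day 5 CTLs, with medians of 0.12, -0.05 and 0.06. Of all tested genes 23% were higher and 21.2% lower in naive cells, 16.3% and 14.5% at 12 h and 10.8% and 10.7% in day 5 CTLs. The differences that follow are log2 fold changes of lin28Tg against let-7Tg. In naive cells Scarb1, a lipoprotein receptor, differed by 0.94 (SE 0.23, adjusted p = 0.00807), Tmem97 by 0.79 (SE 0.13, adjusted p = 0.00155) and Insig2 by -0.51 (SE 0.09, adjusted p = 0.00173). At 12 h Idi2 was at 2.18 ± 0.282 FPKM in lin28Tg and 0.150 ± 0.0560 in let-7Tg cells, a difference of 2.04 (SE 0.22, adjusted p = 0.000225), and Insig2 differed by -0.51 (SE 0.14, adjusted p = 0.0226) and the lysosomal lipase Lipa by -0.42 (SE 0.11, adjusted p = 0.0177). In day 5 CTLs Soat1 differed by 0.66 (SE 0.20, adjusted p = 0.047) and Mbtps2, a protease that releases SREBPs, by 0.58 (SE 0.14, adjusted p = 0.0184).

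Of 28 other genes of fatty acid and glycerolipid synthesis, 23 were tested across the stages, and in WT cells 13 rose and 7 fell to 12 h (median 0.64) while 12 rose and 4 fell afterwards (median 0.55), beside the 35.7% and 35.3% and then 33.1% and 34.4% of all tested genes. Fads2, a fatty acid desaturase, was high in day 5 CTLs as Scd1 and Scd2 were, going from 0.239 ± 0.0535 and 0.833 ± 0.377 FPKM in naive and 12 h activated cells to 101 ± 7.20 FPKM, a rise of 6.19 (SE 0.25, adjusted p = 3.24e-15). Dgat2, an enzyme of triglyceride synthesis, was highest at 12 h, with 0.447 ± 0.175, 11.9 ± 2.88 and 0.737 ± 0.00847 FPKM at the 3 stages and changes of 3.90 and -3.45. Acss2, which makes acetyl-CoA from acetate, and Lpin1, a phosphatidate phosphatase, fell to 12 h, with log2 fold changes of -3.04 (SE 0.21, adjusted p = 2.03e-11) and -2.56 (SE 0.17, adjusted p = 6.95e-12), and Lpin1 rose afterwards by 3.07 (SE 0.17, adjusted p = 5.54e-13). Between lin28Tg and let-7Tg 5 of 22 tested genes were higher and 11 lower in naive cells, 2 of 20 higher and 3 lower at 12 h, and 4 of 23 higher and 0 lower in day 5 CTLs, with medians of -0.15, 0.01 and 0.17. The shares among all tested genes were again 23% and 21.2% in naive cells, 16.3% and 14.5% at 12 h and 10.8% and 10.7% in day 5 CTLs. In naive cells Fads2, at 1.17 ± 0.525 against 0.122 ± 0.0723 FPKM, differed by 1.37 (SE 0.23, adjusted p = 0.00143). Dgat2, at 1.18 ± 0.532 against 0.254 ± 0.0841 FPKM, differed by 1.10 (SE 0.23, adjusted p = 0.00442) and Acss2 by -1.03 (SE 0.18, adjusted p = 0.00186). Myeloid and erythroid markers were also higher in naive lin28Tg cells, and their part was not tested. At 12 h Fads2, at 1.68 ± 0.622 against 0.270 ± 0.241 FPKM, differed by 1.52 (SE 0.31, adjusted p = 0.00605), Acss2 by -0.62 (SE 0.19, adjusted p = 0.0369) and Lpin1 by -0.56 (SE 0.17, adjusted p = 0.0322). In day 5 CTLs Fads3, at 1.92 ± 1.04 against 0.295 ± 0.0412 FPKM, differed by 1.59 (SE 0.27, adjusted p = 0.00352), Dgat2 by 0.51 (SE 0.13, adjusted p = 0.0231) and the citrate carrier Slc25a1 by 0.42 (SE 0.09, adjusted p = 0.0108).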

How the data were processed

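RNA was extracted with TRIzol, and libraries were made, sequenced and processed by a company. Per the labels and the study's methods, the authors aligned reads with TopHat2 2.0.9 and Bowtie2 2.0.6 (GRCm38/mm10 in the submitters' processing notes), counted them with HTSeq 0.6.1 and tested them with DESeq2. The annotation release and the strand setting are not given in the sources used here. The deposited values used here are FPKM per library, computed by the authors from reads, length and depth, in 3 tables, 1 per stage. Mean read counts, log2 fold changes, p-values and cluster numbers in the same tables were not used.

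All 462839 FPKM values above 0 came out as whole reads (tolerance 0.02 reads), which gave the depth of each library. The 27 replicate pairs differed beyond sampling noise, with a mean chi square per gene of 4.4 to 58.1. Genes with 10 reads at median depth in 3 libraries and 15 reads in all were kept. FPKM were scaled by TMM (30% of log ratios and 5% of levels trimmed), 0.5 was added, and log2 values were tested with limma 3.58.1 in R 4.3.3 with an intensity trend, p-values being adjusted over all tested genes (Benjamini-Hochberg, 0.05). Genotypes were compared in 9 libraries per stage, stages and interactions in all 27. The fits were tested on simulated data. Ratios of Scd1 reads carry exact intervals at the 95% level, which cover counting error only.

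Same-numbered libraries were checked for pairing by the correlation of their deviations from group means, since no label says what a number shares. All 9 values lay above 0.1 in day 5 CTLs, as did the 3 of WT and let-7Tg at 12 h (0.24 to 0.549). Of WT and let-7Tg naive cells 2 did (0.475 and 0.216) and 1 did not (0.0612). Alternatives were other pseudocounts (0.1 and 1), no filter, no scaling, a replicate block, voom on the recovered reads, the 6 libraries of a pair of groups alone and each library left out. The interaction of day 5 against naive and the block on WT and let-7Tg libraries alone were chosen after seeing the data.

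The 30 genes and all lists were chosen with earlier results of these data known. All 30 are named. Library values are given for genes called in a genotype comparison, at most 8 of smallest adjusted p in each, and for the 4 regulators. Of each other list, up to 3 called genes of largest change are named per comparison of WT stages or of lin28Tg with let-7Tg. Some genes that this takes in are not reported here. Promoter and microRNA sequences are from RefSeq (GRCm38.p6) and 3′ UTRs from GENCODE M21.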

Additional observations from a re-analysis of the deposited data

Results flagged for a closer look

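The difference between lin28Tg and let-7Tg cells itself differed between stages in 11 cases (interaction in limma on 27 libraries, adjusted over all genes). These were 2 of the 30 genes from naive cells to 12 h, 2 from 12 h to day 5 and 7 from naive cells to day 5. The shares were 6.67%, 6.67% and 23.3%, all toward lin28Tg. Of all tested genes 5.06%, 8.16% and 9.16% were called toward lin28Tg and 8.24%, 12% and 16.2% toward let-7Tg. In either direction it was 13.3%, 20.2% and 25.4%. Values are the change of the log2 fold change of lin28Tg against let-7Tg, with 3 libraries in each group. From naive cells to 12 h, it rose by 0.93 for Acat2 (SE 0.30, adjusted p = 0.0424) and by 0.74 for Dhcr7 (SE 0.23, adjusted p = 0.0391), and both calls were lost with voom. From 12 h to day 5, it rose by 0.91 for Pmvk (SE 0.20, adjusted p = 0.00244) and by 1.71 for Scd1 (SE 0.22, adjusted p = 5.08e-06). From naive cells to day 5, it rose by 0.67 for Tm7sf2 (SE 0.22, adjusted p = 0.0286), by 1.06 for Hsd17b7 (SE 0.32, adjusted p = 0.0163) and by 0.90 for Pmvk (SE 0.20, adjusted p = 0.00214). It also rose by 1.27 for Msmo1 (SE 0.32, adjusted p = 0.00502), by 0.76 for Lss (SE 0.23, adjusted p = 0.0167), by 1.27 for Scd1 (SE 0.22, adjusted p = 0.000154) and by 1.06 for Hmgcs1 (SE 0.34, adjusted p = 0.0262). The call of Hsd17b7 was lost with voom on the recovered reads. Both interactions of Scd1 then had the opposite sign, at -0.22 from 12 h to day 5 and -0.90 from naive cells to day 5, and were not called. The calls of Pmvk in both comparisons and of Msmo1 held under all alternatives run.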

How the results depend on the processing

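Depth limits Scd1 most, with 0 to 9 reads a library at 12 h, and 3 libraries a group limit all else. Of 40 calls of single genes between genotypes, leaving out a library kept 149 of 234 values past the threshold and other alternatives 250 of 282, with the same direction in all. Of 160 calls between stages, 926 of 960 and 950 of 960 were kept, and of 11 interactions 105 of 132 and 55 of 66. With voom the interactions of Scd1 reversed, to -0.22 from 12 h to day 5 and -0.90 from naive cells to day 5. Without a filter more genes are tested, and the counts became 7 (from 11) for lin28Tg against WT and 0 (from 1) for let-7Tg against WT in naive cells, 1 (from 4) for lin28Tg against let-7Tg at 12 h, 0 (from 2) for lin28Tg against WT in day 5 CTLs and 0 (from 2) for the interaction from naive to 12 h. Without scaling they became 7 for lin28Tg against WT in naive cells and 1 in day 5 CTLs, and with 6 libraries, thus fewer samples, 0 for each line against WT in day 5 CTLs. The interaction from naive to 12 h gave 1 with a pseudocount of 0.1 and 0 with voom. The cause was not tested for the changes with scaling, pseudocount and voom.

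With the replicate block, the counts in day 5 CTLs became 7 for lin28Tg against WT, 11 for let-7Tg against WT (13 in their 6 libraries alone) and 20 for lin28Tg against let-7Tg, and that of let-7Tg against WT at 12 h became 12 in their 6 libraries alone. It gave 4 for the interaction from 12 h to day 5. In naive cells it gave 0 for let-7Tg against WT, 11 for lin28Tg against WT and 10 for lin28Tg against let-7Tg. Whether the numbers pair the naive samples is not known, with correlations of -0.257 to 0.475. It moved no other count by over 1.5 times.

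With single libraries left out, the counts ranged as follows. In naive cells they were 3 to 8 for lin28Tg against WT, 0 to 1 for let-7Tg against WT and 6 to 11 for lin28Tg against let-7Tg. At 12 h they were 0 in all cases for lin28Tg against WT, 0 to 1 for let-7Tg against WT and 1 to 4 for lin28Tg against let-7Tg. In day 5 CTLs they were 0 to 1, 0 to 1 and 8 to 14. Between naive and 12 h they were 25 to 27 in WT, 25 to 26 in lin28Tg and 26 to 28 in let-7Tg cells, and between 12 h and day 5 21 to 28, 26 to 28 and 23 to 27. For the interactions they were 0 to 2 from naive to 12 h, 2 to 8 from 12 h to day 5 and 4 to 9 from naive cells to day 5.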

Other observations

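A list of LXR and sterol efflux genes mostly fell in WT cells at 12 h. It holds genes of the sterol-sensing LXR receptors, targets of these receptors and lipid exporters. Of 8 genes, 5 fell and 1 rose from naive to 12 h (median log2 fold change -2.87, against -0.03 for all genes), and 3 rose and 1 fell from 12 h to day 5 (median 0.11), while 35.7% of all tested genes rose and 35.3% fell in the first step and 33.1% and 34.4% did in the second. Abcg1, a cholesterol exporter, was at 68.1 ± 3.73, 1.49 ± 1.26 and 6.21 ± 0.240 FPKM in naive, 12 h activated and day 5 WT cells (mean ± SD, n = 3), with a change to 12 h of -5.10. Abca1, another exporter, was at 19.8 ± 4.11, 0.189 ± 0.160 and 0.0644 ± 0.0495 FPKM, and the LXR target Smpdl3a at 63.3 ± 1.68, 1.45 ± 1.42 and 19.7 ± 1.26. From 12 h to day 5 Smpdl3a rose by 3.50, Abcg1 by 1.84 and Abca7 by 1.39. In day 5 CTLs 1 of the 8 was higher and 2 lower in lin28Tg than in let-7Tg cells (median -0.13), with Abcg1 at -1.48 (SE 0.32, adjusted p = 0.0108), Smpdl3a at -0.85 (SE 0.17, adjusted p = 0.00674) and Lpcat3, which remodels phospholipids, at 0.48 (SE 0.08, adjusted p = 0.00335). At 12 h 1 was higher and 2 lower (median -0.18), with Mylip, which degrades lipoprotein receptors, at -1.07 (SE 0.25, adjusted p = 0.0113), Lpcat3 at 0.43 (SE 0.10, adjusted p = 0.00882) and the LXR gene Nr1h2 at -0.28 (SE 0.09, adjusted p = 0.0356). In naive cells 3 were higher and 2 lower (median 0.01), with the LXR gene Nr1h3 at 2.13 (SE 0.52, adjusted p = 0.00838), Abcg1 at 0.56 (SE 0.10, adjusted p = 0.00173) and Abca7 at -0.53 (SE 0.08, adjusted p = 0.000746). Among all tested genes 10.8% were higher and 10.7% lower in day 5 CTLs, 16.3% and 14.5% at 12 h and 23% and 21.2% in naive cells. Myeloid markers moved in the same direction as Nr1h3 in naive cells, at 139 to 702 against 23.1 to 53.9 FPKM, and their part was not tested.

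Of 22 genes of fatty acid oxidation, 21 were tested across the stages. In WT cells 5 rose and 7 fell to 12 h (median -0.12), and 10 rose and 3 fell afterwards (median 0.38, against -0.01 for all genes), beside the shares of all tested genes of 35.7% and 35.3% to 12 h and 33.1% and 34.4% afterwards. Cpt1a, which carries fatty acids into mitochondria, was at 27.5 ± 6.45, 3.67 ± 0.336 and 24.5 ± 3.67 FPKM at the 3 stages, with changes of -2.49 and 2.44. Acaa2, the thiolase, changed by -1.82 and 1.41, the electron carrier Etfa by 0.89 to 12 h and the dehydrogenase Acadl by 2.15 from 12 h to day 5. In lin28Tg against let-7Tg cells 3 were higher and 2 lower in naive cells, 4 higher and 1 lower at 12 h and 5 higher and 1 lower in day 5 CTLs, beside 23% and 21.2%, 16.3% and 14.5%, and 10.8% and 10.7% of all tested genes. Myeloid and erythroid markers were also higher in lin28Tg than in let-7Tg naive cells, and their part was not tested. The called genes of largest change in naive cells were Cpt1c at 0.80 (SE 0.18, adjusted p = 0.00633, 0.887 ± 0.293 against 0.280 ± 0.0239 FPKM), Etfdh at 0.52 (SE 0.07, adjusted p = 0.000346) and Acads at 0.37 (SE 0.08, adjusted p = 0.00408). At 12 h they were Decr1 at -0.59 (SE 0.12, adjusted p = 0.00535), Eci1 at 0.57 (SE 0.19, adjusted p = 0.043) and Etfdh at 0.56 (SE 0.16, adjusted p = 0.0274), and in day 5 CTLs Acadl at 0.92 (SE 0.12, adjusted p = 0.0011), Eci1 at 0.89 (SE 0.15, adjusted p = 0.00334) and Acads at 0.51 (SE 0.15, adjusted p = 0.0334).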
